A study of Mus musculus with 2 samples.

Results

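The epidermal growth factor (EGF) receptors and their ligands were described in the newborn mouse bladder as 10 genes chosen by symbol, of the 43346 mouse genes in the files. They were the receptor genes Egfr, Erbb2, Erbb3 and Erbb4 and the ligand genes Egf, Areg, Ereg, Hbegf, Tgfa and Btc, and all 10 were found. Total RNA longer than 200 nt had been sequenced from the bladders of 2 pups of the inbred strain B6NCrl on postnatal day 0, and 10 ng of RNA went into the 1 library of each pup. Both pups, called pup 2 and pup 1 in the labels, came from 1 pregnant female, their sex was not recorded, and the labels name no agent and no allele. They form 1 group of 2 biological replicates, so the design holds no treatment to compare.

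Receptors of this family sit in the cell membrane, bind a ligand outside the cell and pair with each other, after which their kinase domains pass the signal on through the RAS and ERK cascade and through PI3 kinase. Ligands are made as membrane-anchored precursors and are released by proteases. EGF, TGF-alpha and amphiregulin bind EGFR, whereas betacellulin, epiregulin and HB-EGF bind both EGFR and ERBB4. ERBB2 has no known ligand of its own and serves as the partner of the others, and ERBB3 has little kinase activity and binds neuregulins. In cultures of human urothelial cells, EGFR signalling by ligands that the cells make themselves is known to drive growth.

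The files held 32564563 expected counts for pup 2 and 43653931 for pup 1. An expected count is the estimated number of reads of a gene, and TPM is that number per length, scaled so that every library has the same total. The tissue label was checked against marker genes: superficial urothelium (5 of 5 genes), basal urothelium (4 of 4), smooth muscle (4 of 4) and fibroblast (4 of 4) all reached 1 TPM in both pups. All 3 kidney markers, Umod, Aqp2 and Slc12a1, had 0 counts in both pups. Of the skeletal muscle markers, Ckm had 599.67 TPM in pup 2 and 656.19 TPM in pup 1, whereas Myh3 was below 1 TPM and Myog had 0 counts. Of the gut epithelium markers, Lgals4 had 8.88 TPM in pup 2 and 7.31 TPM in pup 1, whereas Vil1 was below 1 TPM and Cdx2 had 0 counts. All 3 liver markers were above the threshold: Alb had 3.63 TPM in pup 2 and 15.7 TPM in pup 1, Afp had 1.89 TPM in pup 2 and 9.43 TPM in pup 1, and Apoa1 had 4.91 TPM in pup 2 and 20.96 TPM in pup 1. In whole tissue, fewer cells of a type and less RNA per cell cannot be told apart.

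At 1 TPM or more in both pups, 8 of the 10 genes were detected, against 58.5% of 21474 protein-coding genes and 31.9% of all mouse genes. Detected were 3 of 4 receptors and 5 of 6 ligands, with Erbb4 and Egf below the threshold. The order of the 10 genes by gene-level TPM was the same in both pups: Erbb2, Areg, Egfr, Hbegf, Tgfa, Erbb3, Ereg, Btc, Egf and Erbb4. Of the 9 pairs of neighbours in that order, 4 had ranges over the pups that overlapped: Areg and Egfr, Egfr and Hbegf, Tgfa and Erbb3, and Ereg and Btc. The other 5 pairs had separate ranges.

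**Figure D1:**
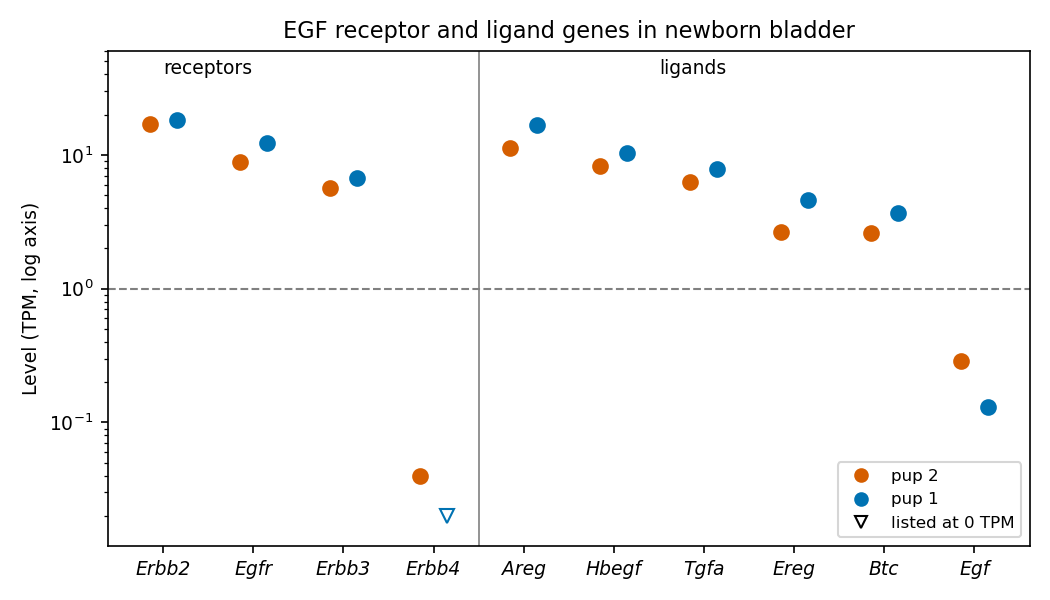
Level in TPM (log axis) of the 4 receptor and 6 ligand genes, each ordered by mean, with 1 point for pup 2 and 1 for pup 1. The dashed line marks 1 TPM, and the open triangle marks a gene listed at 0. Erbb2 leads the receptors at 17.1 TPM in pup 2 and 18.3 TPM in pup 1, Areg leads the ligands at 11.3 TPM in pup 2 and 16.6 TPM in pup 1, and Egf and Erbb4 lie far below the rest.

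Erbb2, the receptor that partners the others, was the most abundant of the 10 genes. It lies on chromosome 11 from 98412470 to 98437716 (mm10), on the plus strand. It had 17.1 TPM in pup 2 and 18.3 TPM in pup 1, a mean of 17.7 ± 0.841 TPM (SD, n = 2), on 1999 counts in pup 2 and 2685 in pup 1. The pups were close, and 55.8% of the protein-coding genes detected in both pups had a lower mean. Erbb2 made up 53.8% of the summed TPM of the 4 receptors in pup 2 and 49.1% in pup 1. Its coding transcript of 5012 nt held 97.3% of the gene's TPM in pup 2 and 100% in pup 1.

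Egfr, the receptor for EGF, was the next receptor by gene level. It lies on chromosome 11 from 16752203 to 16918158, on the plus strand. It had 8.91 TPM in pup 2 and 12.2 TPM in pup 1, a mean of 10.6 ± 2.33 TPM (SD, n = 2), on 1058 counts in pup 2 and 1600 in pup 1. That was 28.1% of receptor TPM in pup 2 and 32.8% in pup 1. The gene level joined several transcripts that encode different products. Egfr-201, with 28 exons and 1210 codons, encodes the complete receptor. Egfr-202, with 16 exons and 655 codons, encodes a shortened form that lacks the membrane-spanning segment and the kinase domain, and is known as a secreted receptor fragment.

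The sequences at the point where both transcripts part are shown because they set apart the complete and the shortened coding sequence. Both share 45 bases of exon 16, in lower case. Egfr-201 then joins exon 17, whereas Egfr-202 reads on into the intron up to its stop codon TAA, and capitals mark the 43 bases after the shared stretch. Of these 43 positions, 35 differ. Sequences are from the GENCODE M21 transcripts on GRCm38, plus strand, with Egfr-201 at chr11:16887141-16887185 joined to chr11:16889913-16889955, and Egfr-202 at chr11:16887141-16887228.
Egfr-201: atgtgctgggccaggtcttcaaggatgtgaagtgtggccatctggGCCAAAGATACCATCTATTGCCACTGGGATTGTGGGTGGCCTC
Egfr-202: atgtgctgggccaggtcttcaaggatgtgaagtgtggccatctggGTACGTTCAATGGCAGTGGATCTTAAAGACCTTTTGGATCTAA

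Per length, the shortened transcript was above the complete one in both pups. Egfr-202 had 4.67 TPM in pup 2 and 5.11 TPM in pup 1, whereas Egfr-201 had 3.01 TPM in pup 2 and 3.73 TPM in pup 1. The ratio of Egfr-202 to Egfr-201 in TPM was 1.55 in pup 2 and 1.37 in pup 1. By reads the order was the other way round, with Egfr-201 at 10208 nt and Egfr-202 at 2943 nt. Egfr-201 took 727 counts in pup 2 and 1130 in pup 1, and Egfr-202 took 318 in pup 2 and 435 in pup 1. The posterior SD that the authors' estimator gave was 15.8 counts in pup 2 and 17.9 in pup 1 for Egfr-201, and 15.6 in pup 2 and 19.8 in pup 1 for Egfr-202, small beside these counts.

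The last exon of Egfr-202 runs 738 nt into an intron of Egfr-201 that is 2727 nt long. Total RNA can hold unspliced RNA, and its part in the level of Egfr-202 was not tested. A short noncoding transcript, Egfr-205 of 446 nt, added 0.71 TPM in pup 2 and 3.36 TPM in pup 1, on 5.86 counts in pup 2 and 34.9 in pup 1. Its posterior SD was 5.69 counts in pup 2, nearly as large as the count itself. In pup 1 the SD was 9.22 counts, well below the count there. Without the noncoding transcripts, Egfr-201 and Egfr-202 together had 7.68 TPM in pup 2 and 8.84 TPM in pup 1. Hbegf stood above that sum in both pups, at 8.29 TPM in pup 2 and 10.4 TPM in pup 1. The TPM of Egfr-201 rests on its annotated 10208 nt, of which 3630 are coding, and coverage along that length was not tested. With Egfr-201 alone as the level of the complete receptor, the mean was 3.37 ± 0.509 TPM (SD, n = 2). The order of the genes then changed: Erbb3 was 1.89 times Egfr-201 in pup 2 and 1.8 times in pup 1, whereas Egfr at gene level was 1.57 times Erbb3 in pup 2 and 1.82 times in pup 1. Hbegf was 2.75 times Egfr-201 in pup 2 and 2.79 times in pup 1, and Tgfa was above it in both pups. Egfr-201 was above Ereg in pup 2 but below it in pup 1, so on this measure the order of the 10 genes was not the same in both pups.

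**Figure D2:**
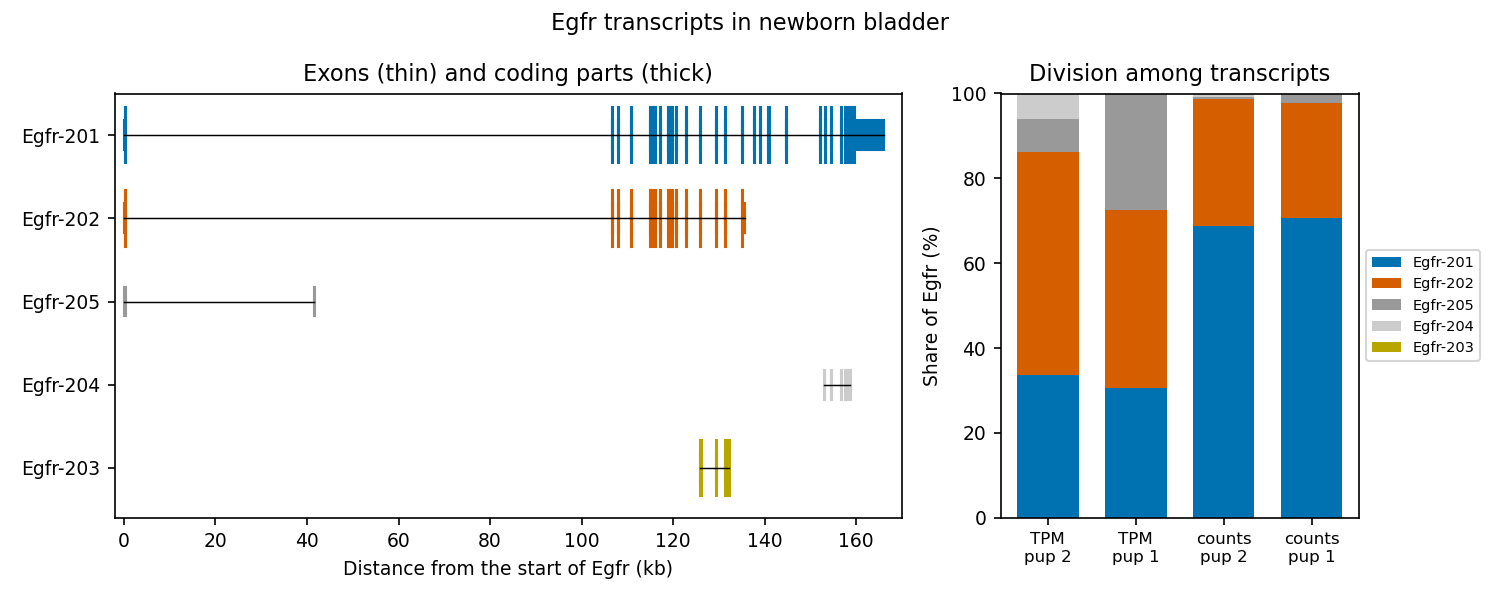
Left, exons (thin) and coding parts (thick) of the 5 Egfr transcripts against distance from the gene's start in kb, with the narrowest boxes widened to stay visible. Right, share of Egfr (%) given to each transcript by TPM and by expected counts in pup 2 and pup 1, in the colours of the left panel. Egfr-202 takes 52.4% of TPM in pup 2 and 41.9% in pup 1 but 30.0% of counts in pup 2 and 27.2% in pup 1.

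Erbb3, on chromosome 10 from 128567523 to 128589652 on the minus strand, encodes the neuregulin receptor with weak kinase activity, which is also known from Schwann cells. It had 5.69 TPM in pup 2 and 6.72 TPM in pup 1, on 805 counts in pup 2 and 1190 in pup 1. Its share of receptor TPM was nearly equal in the pups, at 17.9% in pup 2 and 18.1% in pup 1. All 5 Schwann cell markers reached 1 TPM in both pups, with a sum of 25.9 TPM in pup 2 and 15.1 TPM in pup 1 and 4 of 5 higher in pup 2. All 4 shared epithelial markers reached that level as well, with a sum of 2673 TPM in pup 2 and 3212 TPM in pup 1 and 3 of 4 lower in pup 2. Which cells carried Erbb3 cannot be read from whole tissue.

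Erbb4, on chromosome 1 from 68032186 to 69108059 on the minus strand, encodes the receptor for neuregulins and for betacellulin, epiregulin and HB-EGF. It had 2 counts in pup 2 and 0 in pup 1, and both counts were given to a partial coding transcript of 2196 nt. The complete coding transcripts, of 11782 and 12037 nt, had 0 counts in both pups. In pup 2 the division of the 2 counts was uncertain, with a posterior SD of 0.46 counts for the transcript of 11782 nt, so no limit is given. In pup 1, up to 3 counts are allowed by a count of 0, or 0.00858 TPM for that transcript. PCR copies cannot be recognised in these files, so this limit and every interval given here describe counting error alone.

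Areg, which encodes amphiregulin, was the highest of the ligands. The gene lies on chromosome 5 from 91139599 to 91148432 on the plus strand. It had 11.3 TPM in pup 2 and 16.6 TPM in pup 1, a mean of 13.9 ± 3.81 TPM (SD, n = 2), on 296 counts in pup 2 and 548 in pup 1. The pups were further apart here than for Erbb2. Areg took 35.9% of the summed ligand TPM in pup 2 and 38.5% in pup 1.

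The promoter of Areg is shown because Areg led the ligands and, of the 7 members with a promoter window in the RefSeq table, was the only one whose window held the letters of a cAMP response element. The window is the 250 bases before the gene's start, at chr5:91139349-91139598 (RefSeq, GRCm38.p6, plus strand). Capitals mark TGACGTCA, from 61 to 54 bases before the start, and TATAAA, from 31 to 26 bases before it, which do not overlap.
Areg promoter: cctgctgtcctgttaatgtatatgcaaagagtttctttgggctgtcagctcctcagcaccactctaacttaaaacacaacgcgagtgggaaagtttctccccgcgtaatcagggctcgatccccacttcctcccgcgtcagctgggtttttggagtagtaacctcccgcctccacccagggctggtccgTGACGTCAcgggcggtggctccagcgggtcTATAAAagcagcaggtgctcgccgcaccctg
Searched on both strands, TGACGTCA occurred in 1.55% and TATAAA in 12.4% of 32851 promoter windows of the same length. The windows of Btc, Egf, Egfr, Erbb2, Erbb4 and Tgfa held neither. Binding was not measured, so the match describes the sequence alone.

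Hbegf encodes HB-EGF, the heparin-binding ligand, and lies on chromosome 18 from 36504927 to 36515805 on the minus strand. It had 8.29 TPM in pup 2 and 10.4 TPM in pup 1, on 451 counts in pup 2 and 708 in pup 1. Its share of ligand TPM was 26.5% in pup 2 and 24.1% in pup 1. Tgfa encodes TGF-alpha and lies on chromosome 6 from 86195223 to 86275719 on the plus strand. It had 6.23 TPM in pup 2 and 7.78 TPM in pup 1, on 526 counts in pup 2 and 733 in pup 1, and so stayed below the range of Hbegf.

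For Tgfa the main coding transcript Tgfa-201 held 96.1% of the counts in pup 2 and 95.2% in pup 1, but 83.0% of the TPM in pup 2 and 73.4% in pup 1. A coding transcript of only 410 nt, Tgfa-202, reached 0.75 TPM in pup 2 and 1.61 TPM in pup 1 on 5.56 counts in pup 2 and 14.9 in pup 1. A few reads on a short transcript thus made up 11.99% of the TPM of Tgfa in pup 2 and 20.7% in pup 1. Erbb3, Egf, Areg, Ereg, Hbegf and Btc each had 1 transcript in the files.

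Epiregulin and betacellulin, both of which bind EGFR and ERBB4, were lower. Ereg, on chromosome 5 from 91074622 to 91093646 on the plus strand, had 2.66 TPM in pup 2 and 4.6 TPM in pup 1, on 257 counts in pup 2 and 556 in pup 1. Btc, on chromosome 5 from 91357261 to 91402994 on the minus strand, had 2.60 TPM in pup 2 and 3.66 TPM in pup 1, on 173 counts in pup 2 and 304 in pup 1. Their ranges overlapped. Areg was 4.23 times Ereg in pup 2 and 3.62 times in pup 1. Ereg, Areg and Btc lie within 328 kb, with the related ligand gene Epgn beside them.

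Egf itself was the lowest ligand. It encodes the large EGF precursor, which is known as a product of kidney tubules and salivary glands. The gene lies on chromosome 3 from 129677565 to 129755316 on the minus strand and had 0.29 TPM in pup 2 and 0.13 TPM in pup 1, on 32 counts in pup 2 and 18 in pup 1. Areg was 38.8 times Egf in pup 2 and 128 times in pup 1. In GENCODE M21, exons of the antisense genes 6330410L21Rik and Gm42697 overlap exons of Egf over 500 and 607 nt, and with strand use not given their reads cannot be told apart from those of Egf.

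Summed over genes, the 6 ligands reached 31.3 TPM in pup 2 and 43.2 TPM in pup 1, and the 4 receptors 31.7 TPM in pup 2 and 37.2 TPM in pup 1. The ratio of ligand to receptor TPM was 0.988 in pup 2 and 1.16 in pup 1, so at gene level the sums were of similar size. The receptor sum counts all Egfr transcripts, at 8.91 TPM in pup 2 and 12.2 TPM in pup 1. Of these, Egfr-201, for the complete receptor, gave 3.01 TPM in pup 2 and 3.73 TPM in pup 1. Counting Egfr-201 alone would lower the receptor sum and raise the ratio in both pups. For all 10 genes the posterior SD of the gene count was 0 in both pups and the expected counts were whole numbers. Annotated exons of other genes on the opposite strand overlapped those of Erbb2 by 9 nt (Mien1), Ereg by 141 nt (Gm19610) and Tgfa by 118 nt (Gm43917).

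Between the littermates, most of the 10 genes were somewhat lower in pup 2. Counts were scaled by TMM factors, which were fitted on all mouse genes. Ratios of pup 2 over pup 1 are given as log2 values where the mean count reached 20, which left out Erbb4. Of the 9 genes left, 1 was 2-fold apart, against 3.72% of 15607 genes, and none was 2-fold lower in pup 2, against 0.871%. At a mean count of 100 or more, 0 of 8 were 2-fold apart, against 1.98%. Ratios below 1 were found for 8 of the 9, against 52.7% of all genes.

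The 95% counting interval excluded equal levels for 7 of the 9 genes, against 47.3% of all genes. It lay wholly below equal levels for 6, against 26%, and wholly above for 1, against 21.3%. With 1 library per pup the intervals leave out the spread between animals, and no test across animals could be made. The median log2 ratio of the 9 genes was -0.19, against -0.015 over all genes.

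Ereg had the lowest ratio, at -0.71 (interval -0.93 to -0.49), which is 1.64-fold lower in pup 2. It was the only one at least 1.5-fold lower in pup 2, against 3.35% of all genes, and with Egf it made 2 genes 1.5-fold apart either way, against 9.6%. Areg had -0.48 (-0.69 to -0.28) and Btc -0.41 (-0.69 to -0.14). These 3 neighbours on chromosome 5 had the 3 lowest ratios of the 9. The 5th percentile of all genes was -0.4772, which lay just above Areg at -0.4845 and below Btc. Epgn, in the same cluster, had 3 counts in pup 2 and 6 in pup 1.

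The other ratios lay nearer to 0, except for Egf. Hbegf had -0.25 (-0.42 to -0.07) and Tgfa -0.07 (-0.24 to 0.09). Among the receptors, Egfr had -0.19 (-0.31 to -0.08), Erbb3 -0.16 (-0.29 to -0.03) and Erbb2 -0.02 (-0.11 to 0.06). Within Egfr, Egfr-201 had -0.23 (-0.37 to -0.10) and Egfr-202 had -0.05 (-0.26 to 0.16). The noncoding Egfr-205 had -2.14 (-3.68 to -0.88), on few counts whose division among transcripts was uncertain. Egf was 2.35-fold higher in pup 2, with an interval of 1.28-fold to 4.45-fold. Where mean counts were 20 to 32, as for Egf, 15.1% of 905 genes were 2-fold apart.

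**Figure D3:**
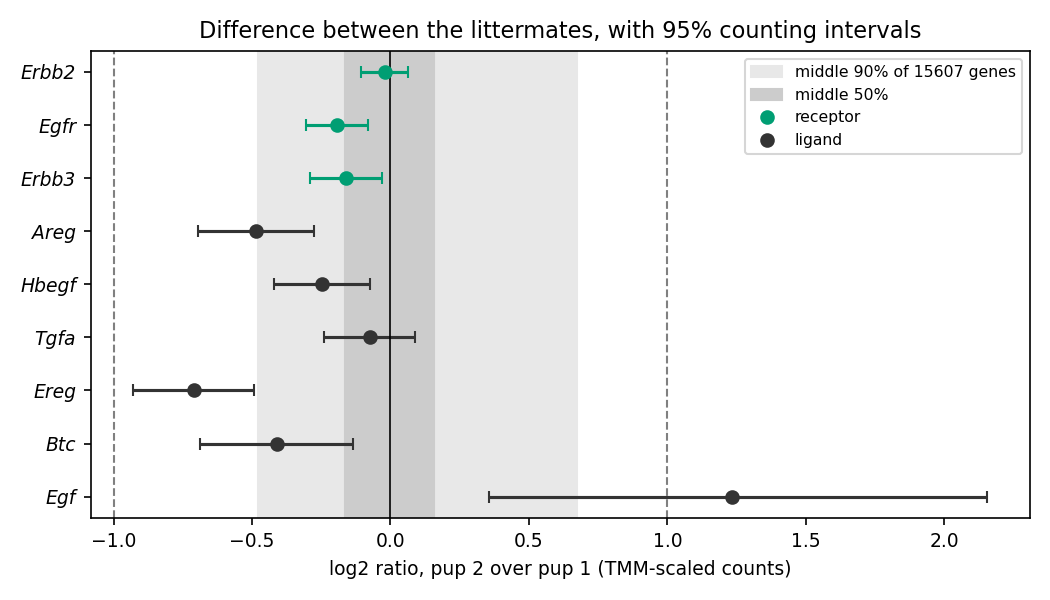
Log2 ratio of TMM-scaled counts, pup 2 over pup 1, for the 9 members that reached a mean count of 20, with receptors above and ligands below. Bars are 95% counting intervals, dashed lines mark 2-fold, and grey bands hold the middle 90% and 50% of 15607 genes. Ereg and, only just, Areg lie left of the wider band, and Egf lies right of the 2-fold line with the widest interval.

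Cell-type markers differed between the pups by unlike amounts. Over all genes, 52.7% had a ratio below 1 and 0.871% were 2-fold lower in pup 2, while 2.84% were 2-fold higher. Endothelial genes had a median log2 ratio of -0.02, with 2 of 3 lower in pup 2, and fibroblast genes -0.09, with 3 of 4 lower. The 4 shared epithelial genes had a median log2 ratio of -0.15, with 3 of 4 lower in pup 2 and sums of 2673 TPM in pup 2 and 3212 TPM in pup 1. Basal urothelium genes had 0.12, with 4 of 4 higher and sums of 1153 TPM in pup 2 and 1150 TPM in pup 1, and superficial ones 0.02, with 3 of 5 higher and sums of 5690 TPM in pup 2 and 5953 TPM in pup 1. Smooth muscle genes had -0.19, with 4 of 4 lower. Blood-cell markers differed more: macrophage genes summed to 358 TPM in pup 2 against 144 TPM in pup 1 (4 of 4 higher), neutrophil genes to 375 TPM in pup 2 against 34.9 TPM in pup 1 (3 of 3 higher) and erythroid genes to 54240 TPM in pup 2 against 19830 TPM in pup 1 (4 of 4 higher). Mast cell genes, too, were higher in 4 of 4 cases, with a sum of 222 TPM in pup 2 against 96.5 TPM in pup 1. Among them Cpa3 was close, at 24.25 TPM in pup 2 and 24.1 TPM in pup 1 (log2 ratio 0.09, interval -0.05 to 0.23). Kit had 2.75 TPM in pup 2 and 2.56 TPM in pup 1, but by scaled counts its log2 ratio was 0.40 (0.18 to 0.63). Tpsb2, at 132.84 TPM in pup 2 and 38.54 TPM in pup 1, and Cma1, at 61.84 and 31.35 TPM, were further apart. The liver genes went the other way, as most receptors and ligands did: 3 of 3 were 2-fold lower in pup 2, with a median log2 ratio of -2.03 and sums of 10.4 TPM in pup 2 against 46.1 TPM in pup 1. The part of cell makeup in the ratios of the receptors and ligands was not tested.

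Genes that act with the receptors were taken from lists. Detected again means 1 TPM or more in both pups, which 58.5% of 21474 protein-coding genes and 31.9% of all mouse genes reached. The remaining EGF family ligands were all below 1 TPM (0 of 5 detected). Nrg4, a ligand of ERBB4, had 0.60 TPM in pup 2 and 0.50 TPM in pup 1, and Nrg1, a neuregulin that binds ERBB3 and ERBB4, had 0.25 TPM in pup 2 and 0.38 TPM in pup 1. Nrg2 had 0.30 TPM in pup 2 and 0.15 TPM in pup 1, Epgn had 0.08 TPM in pup 2 and 0.12 TPM in pup 1, and Nrg3 had 0 counts in both. Each of the 5 detected EGFR ligands thus stood above every neuregulin in both pups.

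Genes for releasing and transporting ligands were detected in 8 of 8 cases. Tmed2, a trafficking protein, led the list at 401 TPM in pup 2 and 467 TPM in pup 1, before the protease Adam9 at 53.8 TPM in pup 2 and 70.9 TPM in pup 1. Rhbdf1, a partner of ADAM17, had 55.3 TPM in pup 2 and 61.9 TPM in pup 1. Adam17 itself, the main sheddase of TGF-alpha, HB-EGF and amphiregulin, had 16.1 TPM in pup 2 and 14.9 TPM in pup 1, and Adam10, which releases EGF and betacellulin, had 42.9 TPM in pup 2 and 44.7 TPM in pup 1. The lowest were Adam12 at 2.43 TPM in pup 2 and 2.87 TPM in pup 1, Rhbdf2, also a partner of ADAM17, at 5.44 TPM in pup 2 and 2.92 TPM in pup 1, and Rhbdl2 at 9.36 TPM in pup 2 and 9.95 TPM in pup 1. None of the 8 was 2-fold apart, against 3.72% of all genes, although Rhbdf2 came near it at a log2 ratio of 0.97 (0.76 to 1.19). Lower in pup 2 were 5 of 8, against 52.7% of all genes.

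Receptor partners were detected in 4 of 6 cases. Cd9, a tetraspanin that associates with the HB-EGF precursor, had 573 TPM in pup 2 and 561 TPM in pup 1, and the proteoglycan Sdc1 had 88.7 TPM in pup 2 and 88.6 TPM in pup 1. Erbin, which binds ERBB2, had 9.66 TPM in pup 2 and 11.9 TPM in pup 1. The mucin Muc4, which also binds ERBB2, had 2 counts in pup 2 and 1 in pup 1, and Muc1 had 13 counts in pup 2 and 14 in pup 1. Cd44, a hyaluronan receptor that leukocytes also carry, was the only one of the 4 genes over a mean count of 20 that was 2-fold apart, with 28.3 TPM in pup 2 and 13.9 TPM in pup 1 (log2 ratio 1.01, interval 0.92 to 1.10). Among all genes 2.84% were 2-fold higher in pup 2. The macrophage and neutrophil sums were higher in pup 2 as well, and their part in Cd44 was not tested.

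Inhibitors of the pathway were detected in 16 of 16 cases. Spry2, a feedback inhibitor of the ERK cascade, had 51.0 TPM in pup 2 and 67.5 TPM in pup 1. The phosphatase gene Ptpn1 had 33.0 TPM in pup 2 and 36.7 TPM in pup 1, and Errfi1, which binds and blocks the EGFR kinase, had 34.9 TPM in pup 2 and 32.9 TPM in pup 1. At the low end, Lrig3 had 1.61 TPM in pup 2 and 1.55 TPM in pup 1, Socs4 had 1.32 TPM in pup 2 and 1.88 TPM in pup 1, and the ubiquitin ligase gene Cblb had 1.81 TPM in pup 2 and 2.36 TPM in pup 1. Of the 16, 11 were lower in pup 2, against 52.7% of all genes, and none was 2-fold apart, against 3.72%. Their median log2 ratio was -0.07, against -0.015 over all genes.

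The adaptors and the signalling cascade were detected in 19 of 19 cases, with a median of 49.4 TPM, above every receptor. Hras, which encodes a RAS protein, had 106 TPM in pup 2 and 102 TPM in pup 1, and the kinase gene Map2k2 had 102 TPM in pup 2 and 104 TPM in pup 1. Sos1, the exchange factor that activates RAS, was lowest at 1.54 TPM in pup 2 and 1.77 TPM in pup 1, below Pik3ca at 5.76 TPM in pup 2 and 6.22 TPM in pup 1 and the adaptor gene Gab1 at 6.97 TPM in pup 2 and 7.85 TPM in pup 1. Of the 19, 11 were lower in pup 2, against 52.7% of all genes, and none was 2-fold apart, against 3.72%. Their median log2 ratio was -0.04, against -0.015 over all genes.

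Genes known to be induced by ERK signalling, among other pathways, were detected in 8 of 10 cases. Myc had 42.7 TPM in pup 2 and 43.6 TPM in pup 1, Phlda1 had 33.5 TPM in pup 2 and 42.5 TPM in pup 1, and the cyclin gene Ccnd1 had 24.2 TPM in pup 2 and 32.1 TPM in pup 1. At the low end, Etv4 had 0.53 TPM in pup 2 and 0.29 TPM in pup 1, and Dusp4 had 3.26 TPM in pup 2 and 3.76 TPM in pup 1. Fosl1, an AP-1 subunit, was the only one of the 10 that was 2-fold apart, at 1.56 TPM in pup 2 and 0.77 TPM in pup 1 on 60 counts in pup 2 and 37 in pup 1 (log2 ratio 1.10, interval 0.49 to 1.73). Over all genes 3.72% were 2-fold apart and 2.84% were 2-fold higher in pup 2. The list's median log2 ratio was 0.24, against -0.015 over all genes, and 3 of its 10 ratios were below 1, against 52.7% of all genes.

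**Figure D4:**
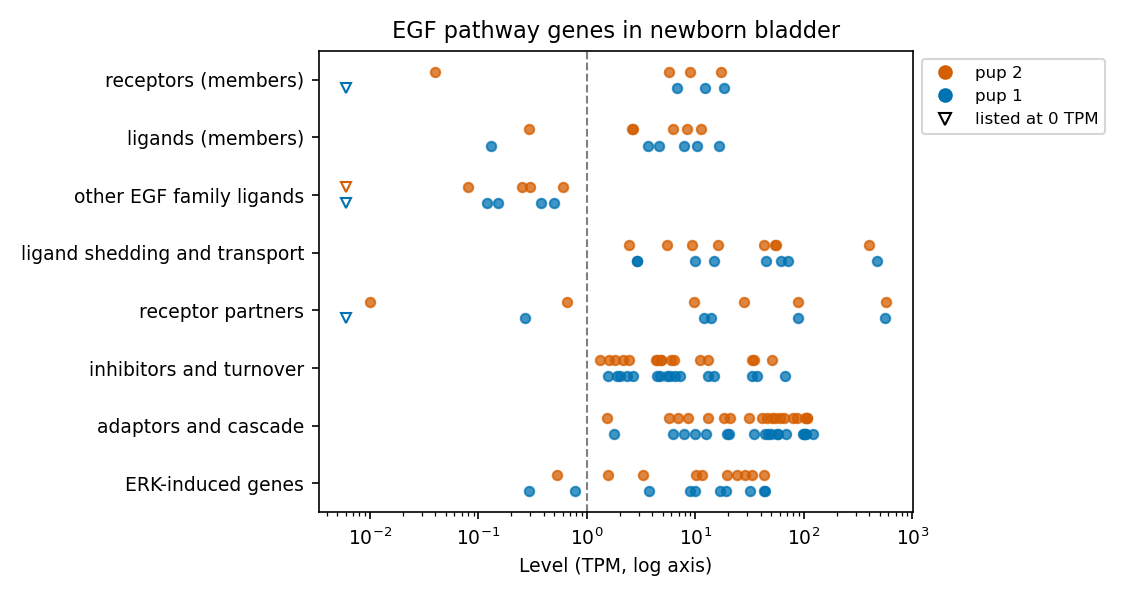
Level in TPM (log axis) of the receptors, the ligands and 6 lists of pathway genes, with 1 point per gene, pup 2 above pup 1 in each row. The dashed line marks 1 TPM and open triangles mark genes listed at 0. The remaining EGF family ligands lie below the line throughout, and the adaptors and cascade lie above it throughout, with a median of 49.4 TPM.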

How the data were processed

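Total RNA-seq of 2 newborn bladders was deposited as 1 gene file and 1 transcript file per library, on mm10 with GENCODE M4 per the README supplied with each sample. For the aligner, the version of the estimator and the strand setting, nothing is given in the sources used here. Expected counts as deposited, named so in the file headers, estimate the reads of each feature and need not be whole. Deposited TPM and FPKM values are per effective length, which the files give as 99 nt below transcript length, so that 1 read weighs more on a short transcript. The deposited percent per transcript (IsoPct) is its share of the gene's TPM. Of 43346 mouse genes, 42462 matched GENCODE M21 symbols. Spike-in and numeric entries (26345) stayed out of scaling.

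Expected counts were rounded, scaled by TMM (edgeR 4.0.16, R 4.3.3; DESeq2 1.42.0 as alternative), and given exact binomial (Clopper-Pearson) 95% intervals in scipy 1.17.1. A count of 0 was set to 3. No ratio was formed where both pups had 3 counts or fewer. The steps were tested on simulated counts. With 1 library per pup no test across animals was run. From each pathway list the text names up to 3 genes at the top and at the bottom by mean TPM and those 2-fold apart; 1 such gene is not reported here. Adam10 and Adam17 fall outside this rule and were named after their values were seen. Members and lists were chosen with earlier results of these data known.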

Additional observations from a re-analysis of the deposited data

How the results depend on the processing

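The count of members detected was 8 of 10 at 0.5 TPM, at 2 TPM, at 1 FPKM, with TPM rescaled over mouse genes, with posterior mean TPM and in each pup alone. The count of members 2-fold apart was 1 and became 0 at a mean count of at least 100, which drops Egf, and 2 at 1.5-fold, which adds Ereg. DESeq2 size factors, total counts, no count filter and posterior mean counts left it at 1. With Egfr-201 alone as the level of Egfr, a setting chosen after seeing the data, the receptor shares were 12.3% for Egfr, 64.9% for Erbb2 and 22.7% for Erbb3, against 30.5%, 51.5% and 18.01% with the whole gene. Posterior means moved Erbb3 to 17.3%, Erbb4 to 1.03% of receptor TPM and the main Erbb2 transcript to 96.0% of its gene. The posterior mean gives transcripts without reads a level above 0. By TPM ratio the difference between pups was -0.45 for Egfr and -0.32 for Tgfa, against -0.19 and -0.07 by counts. The median over all genes was -0.09 by TPM ratio, against -0.015 by counts. The gene TPM includes the short Egfr-205, at 0.71 TPM in pup 2 and 3.36 TPM in pup 1. That of Tgfa includes the short Tgfa-202, at 0.75 TPM in pup 2 and 1.61 TPM in pup 1. With 1 added to TPM, the log2 ratio of Egf was 0.19. No paired analysis was possible because the pups form a single group. Depth limits Egf, with 32 counts in pup 2 and 18 in pup 1, and Erbb4, with 2 in pup 2 and 0 in pup 1.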
